A study of Mus musculus with 8 samples.

Results

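The 10 genes described here encode proteins of transforming growth factor-β (TGF-β) signalling. They are the ligands Tgfb1 and Tgfb2, the latency partners Ltbp1 and Nrros, the receptors Tgfbr1 and Tgfbr2, the signal transducers Smad2 and Smad3, and the inhibitors Smad7 and Ski. They were picked by name from the 32285 genes of a single-nucleus RNA sequencing (snRNA-seq) dataset, and all 10 were found in it. The tissue was brain hemisphere, freed of the cerebellum and the olfactory bulb, from mice of the strain C57BL6/J and the age of 6 months. The 4 genotypes were wild-type (WT) mice, Cnp-/- mice, 5xFAD mice and Cnp-/- 5xFAD mice, with 2 libraries of each genotype and 8 in all. Cnp-/- mice lack CNP, an enzyme of myelinating oligodendrocytes, in all cells and from birth, and their myelin is defective. 5xFAD mice express mutant human transgenes, APP among them, from the neuronal Thy1 promoter and form amyloid plaques. The experiment asked how defective myelin, amyloid and both together act on the cells of the brain. Each library is 1 replicate. The study's reporting summary describes pooled animals in each replicate of its single-cell work, whereas its methods describe pooling for another dataset and not for this one, so whether a library is 1 animal or a pool is not settled.

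The 8 libraries held 61949 nuclei, with 6801 to 8824 nuclei and 68905044 to 82399061 unique molecular identifiers (UMIs) each. A UMI tags 1 captured transcript, so that PCR copies are counted once. Of 61494 distinct cell barcodes, 454 occurred in 2 or more libraries. Levels are given as CPM, the UMIs of a gene for every 1000000 UMIs summed over all nuclei of a cell type in 1 library. In mature oligodendrocytes (MOL), Cnp itself lay at 219 to 321 CPM in the 4 WT and 5xFAD libraries and at 23.1 to 32.8 CPM in the 4 Cnp-/- and Cnp-/- 5xFAD libraries, which matched the Cnp part of the genotype labels. The 5xFAD part was not checked in this way. The authors' annotation divided microglia into homeostatic microglia, amyloid-associated disease-associated microglia (amyloid-DAM), myelin-associated disease-associated microglia (myelin-DAM) and myelin transcript enriched (MyTE) microglia. Homeostatic profiles rested on 48 to 199 nuclei and 79010 to 246936 UMIs for each library. Profiles of under 20 nuclei were left out. This left amyloid-DAM in the 4 libraries with the 5xFAD transgenes and myelin-DAM in the 4 libraries without Cnp. The sum of 6 microglial markers was 7512 to 9137 CPM in homeostatic microglia, and the sum of 5 myelin markers was 12563 to 15884 CPM in MOL. In both DAM states the microglial markers exceeded 7 DAM markers, with means of 5955 and 1207 CPM in amyloid-DAM and 5485 and 1892 CPM in myelin-DAM. The DAM markers had means of 479 CPM in homeostatic microglia, 2361 CPM in macrophages and 2580 CPM in astrocytes. In 3 further groups another list had the higher mean sum. Newly formed oligodendrocytes (NFOL) held 2815 CPM of their own 4 markers, 3541 CPM of the myelin markers and 6008 CPM of 5 astrocyte markers. Oligodendrocyte precursor cells (OPCs) held 4737 CPM of their own 4 markers and 4894 CPM of the astrocyte markers, and MyTE microglia 2869 CPM of microglial and 7833 CPM of myelin markers.

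TGF-β is secreted in a latent complex, in which a propeptide encloses the ligand and an anchoring protein holds the complex in the matrix (LTBP1) or on the surface of myeloid cells (NRROS). Freed ligand joins the receptors TGFBR2 and TGFBR1, and TGFBR1 phosphorylates SMAD2 and SMAD3, which enter the nucleus and change transcription. SMAD7 is induced by the signal and blocks the receptor, and SKI holds SMAD complexes in a repressed state. In the brain the pathway is known for keeping microglia in their homeostatic state, with NRROS needed for presentation of the ligand in microglia.

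All 10 genes are protein-coding, and the positions in the mouse genome (GRCm38) of the 4 that differed between microglial states follow. Tgfb1 spans 18076 bases at chr7:25687002-25705077 on the plus strand, and Tgfbr1 spans chr4:47353222-47414931 on the plus strand. Tgfbr2 spans 91068 bases at chr9:116084293-116175360 and Smad3 spans chr9:63646767-63757994, both on the minus strand. None of these 4 overlaps another annotated gene, whereas Tgfb2 overlaps Gm26169 and Gm29491 on the opposite strand. Ltbp1 overlaps Gm6276 on its own strand, so that reads of Ltbp1 and Gm6276 could be shared. The 250 bases before their RefSeq start sites (GRCm38.p6) are shown for these 4 genes because only they were called between states. Each is written on the strand of its gene, and capitals mark CAGAC or, for the opposite strand, GTCTG, the core letters that SMAD3 is known to bind.

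Tgfb1: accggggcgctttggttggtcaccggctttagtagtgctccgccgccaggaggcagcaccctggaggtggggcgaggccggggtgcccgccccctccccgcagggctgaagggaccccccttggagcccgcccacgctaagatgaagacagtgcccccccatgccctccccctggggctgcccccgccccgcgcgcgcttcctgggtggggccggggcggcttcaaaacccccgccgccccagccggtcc
Tgfbr1: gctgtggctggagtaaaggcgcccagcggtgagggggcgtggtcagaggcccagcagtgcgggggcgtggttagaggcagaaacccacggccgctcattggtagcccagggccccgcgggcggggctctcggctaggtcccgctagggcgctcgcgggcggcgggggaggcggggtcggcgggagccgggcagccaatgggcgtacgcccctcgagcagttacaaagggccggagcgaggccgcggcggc
Tgfbr2: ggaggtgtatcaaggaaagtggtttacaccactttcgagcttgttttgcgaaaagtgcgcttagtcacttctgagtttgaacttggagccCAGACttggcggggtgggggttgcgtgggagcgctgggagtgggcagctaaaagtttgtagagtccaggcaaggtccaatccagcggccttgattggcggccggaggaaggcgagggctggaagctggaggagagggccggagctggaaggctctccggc
Smad3: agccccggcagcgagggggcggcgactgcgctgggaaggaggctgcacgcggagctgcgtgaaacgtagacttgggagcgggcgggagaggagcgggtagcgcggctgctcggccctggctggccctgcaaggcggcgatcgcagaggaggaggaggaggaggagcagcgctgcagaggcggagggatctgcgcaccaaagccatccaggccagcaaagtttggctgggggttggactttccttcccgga

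These windows are chr7:25686752-25687001, chr4:47352972-47353221, chr9:116175364-116175613 and chr9:63757995-63758244. The Tgfbr2 window held 1 match, which starts 160 bases before the start site, and the windows of Tgfb1, Tgfbr1 and Smad3 shown here held none. A second RefSeq window of Tgfbr1, chr4:47385966-47386215, which is not shown, held 1 match that starts 203 bases before its start site. RefSeq promoter windows were at hand for 8 of the 10 genes, and 5 of these held the letters in at least 1 window. The letters stood in 42.2% of all 32851 windows of this length, so a match was common and says nothing of binding here.

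Which cells held the transcripts of each gene was described first. The annotated cell types were clustered by the authors from these same counts, so the levels in this and the next 4 paragraphs are a description without a test. CPM is a share of the UMIs of a profile, and nuclei of different types held different numbers of UMIs. In WT replicate 1, 155 homeostatic microglia held 206296 UMIs, 45 of them of Tgfb1. Its 200 endothelial nuclei held 1100753 UMIs, 69 of them of Tgfb1. The orders of cell types given here hold for CPM and need not hold for UMIs per nucleus. In CPM, Tgfb1, the ligand made mainly by immune cells, was highest in homeostatic microglia. It was at 214 ± 46.9 CPM in homeostatic microglia (SD, n = 8 libraries), 205 ± 49.7 CPM in myelin-DAM (n = 4) and 158 ± 76.2 CPM in macrophages (n = 5). Levels were 133 ± 38.3 CPM in amyloid-DAM (n = 4) and 79.5 ± 31.7 CPM in MyTE microglia (n = 6). In endothelial cells Tgfb1 was at 55.1 ± 8.21 CPM in 8 libraries, and in neurons, astrocytes, OPCs and MOL its mean stayed between 1.03 and 2.01 CPM. The ranges over libraries of all neighbours in this order overlapped.

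Tgfb2, a ligand of the same receptors, showed another distribution. It was highest in endothelial cells, at 191 ± 16.2 CPM, and the lowest endothelial library (175 CPM) lay above the highest astrocyte library (89.2 CPM). Astrocytes held 76.9 ± 9.33 CPM, OPCs 42.0 ± 10.6 CPM and NFOL 34.6 ± 15.1 CPM, with n = 8 each. In microglia Tgfb2 was close to absent, with 11 UMIs in all microglia of the 8 libraries together. In the means, Tgfb1 was therefore higher in homeostatic microglia than in endothelial cells, and Tgfb2 was the reverse.

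The latency partners were also divided between cell types. Nrros, which anchors latent TGF-β on myeloid cells, was highest in macrophages at 616 ± 132 CPM (n = 5), and the lowest macrophage library (457 CPM) lay above the highest amyloid-DAM library (419 CPM). Amyloid-DAM held 360 ± 49.5 CPM, homeostatic microglia 353 ± 46.7 CPM and myelin-DAM 306 ± 24.1 CPM, with overlapping ranges. MyTE microglia followed at 152 ± 41.5 CPM, and endothelial cells at 40.8 ± 3.99 CPM. Ltbp1, the matrix anchor, was instead found in OPCs (140 ± 26.2 CPM), NFOL (136 ± 29.2 CPM) and astrocytes (119 ± 22.6 CPM), whose ranges overlapped. In homeostatic microglia of the 8 libraries, Ltbp1 had 1 UMI.

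Both receptors were highest in microglia. Tgfbr1 was at 2930 ± 345 CPM in homeostatic microglia, 2552 ± 522 CPM in myelin-DAM, and amyloid-DAM held 2336 ± 121 CPM. MyTE microglia (1098 ± 202 CPM), macrophages (533 ± 149 CPM) and NFOL (187 ± 33.3 CPM) followed, each below the one before without overlap. Tgfbr2 was highest in amyloid-DAM at 1308 ± 121 CPM, where the lowest library (1142 CPM) exceeded the highest myelin-DAM library (1045 CPM). It was at 877 ± 157 CPM in myelin-DAM, 775 ± 103 CPM in homeostatic microglia and 590 ± 97.5 CPM in macrophages. Endothelial cells, at 238 ± 12.98 CPM, lay above pericytes at 70.5 ± 32.5 CPM (n = 7). In OPCs and MOL, Tgfbr2 had 27 and 55 UMIs over 8 libraries.

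Signal transducers and inhibitors were spread more widely. Smad2 lay between 134 ± 53.5 and 155 ± 14.6 CPM in the 3 microglial states and at 29.9 ± 10.3 CPM in MOL, the lowest, which did not overlap with neurons (48.4 ± 2.33 CPM). Smad3 was at 371 ± 31.0 CPM in amyloid-DAM, 361 ± 85.3 CPM in homeostatic microglia and 231 ± 108 CPM in myelin-DAM, with 97.4 ± 10.2 CPM in neurons. In MOL, Smad3 was at 25.8 ± 30.6 CPM, with the widest spread relative to its mean of the SMAD genes in that cell type. Smad7 was highest in MOL (634 ± 153 CPM) and MyTE microglia (530 ± 62.9 CPM), which overlapped. It reached 350 ± 98.1, 341 ± 82.5 and 333 ± 52.0 CPM in myelin-DAM, homeostatic microglia and amyloid-DAM, and 257 ± 36.3 CPM in endothelial cells. Ski was at 568 ± 26.0 CPM in amyloid-DAM, 480 ± 64.7 CPM in homeostatic microglia and 415 ± 137 CPM in myelin-DAM, and was lowest in MOL (49.1 ± 18.7 CPM).

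**Figure D1:**
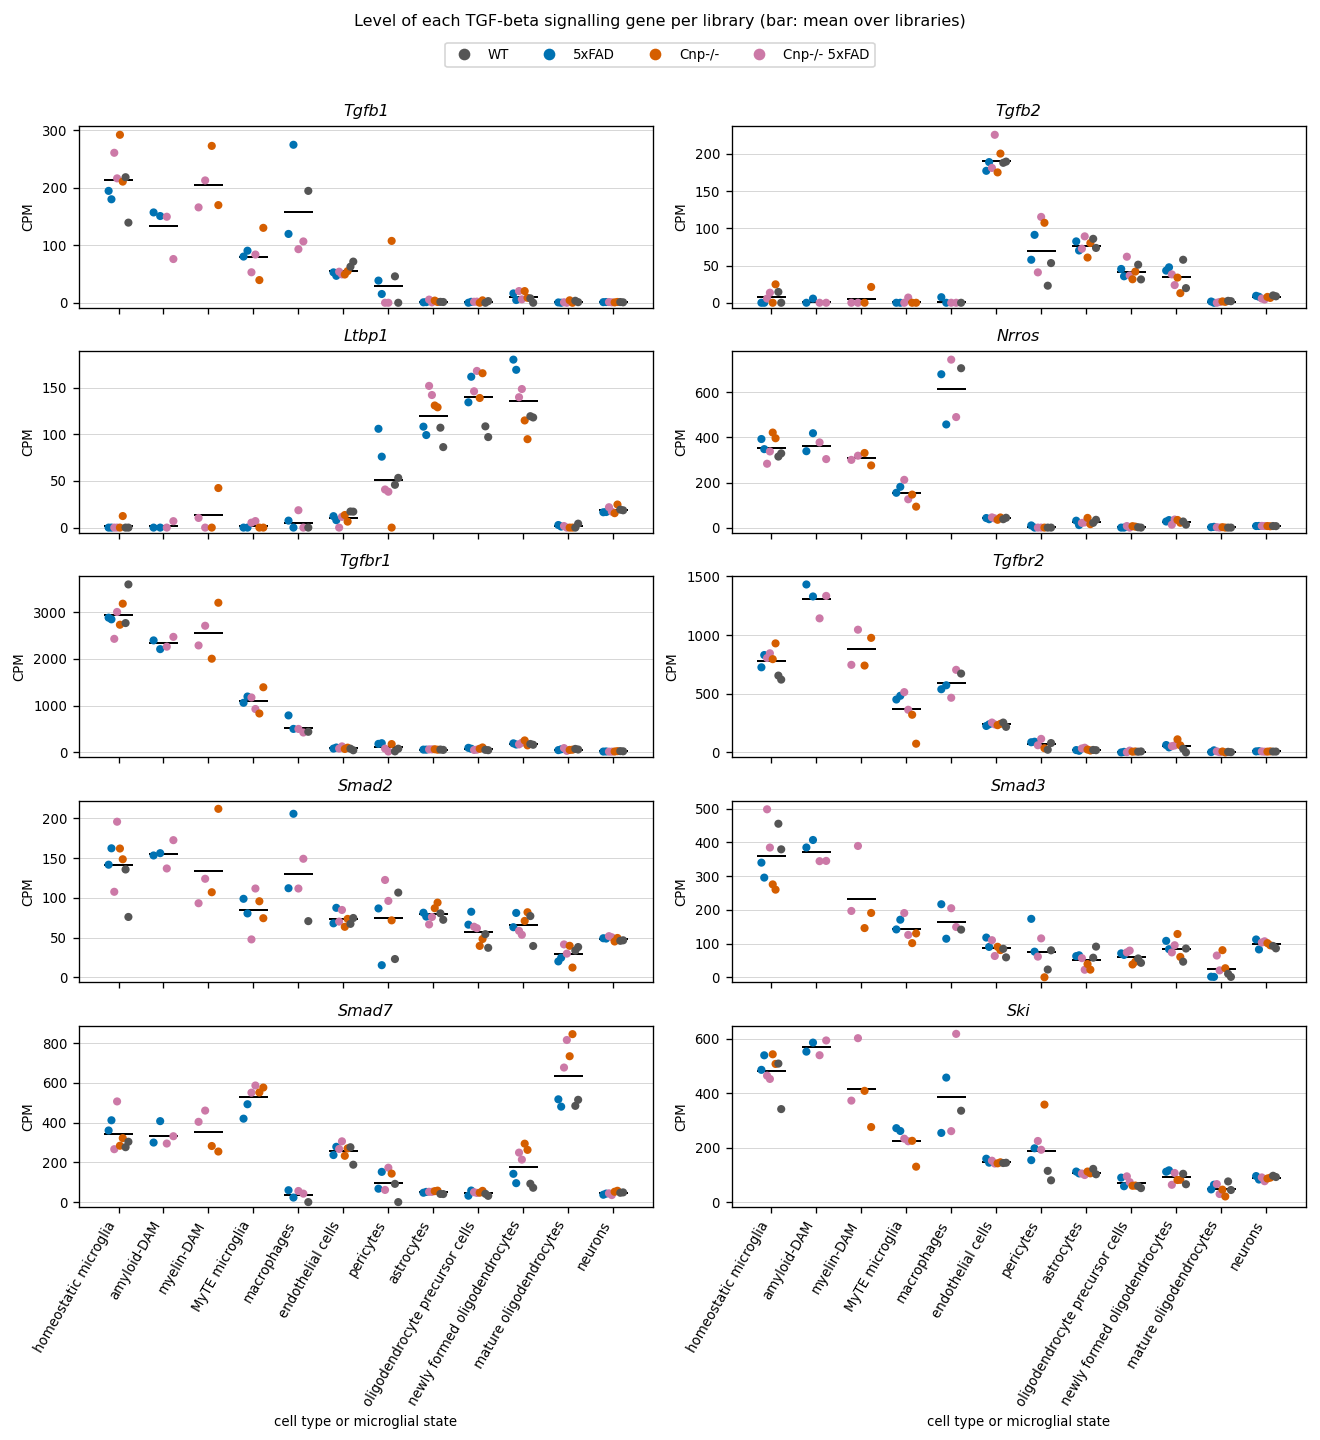
Levels of the 10 TGF-β signalling genes in 12 cell types and microglial states, as CPM on the vertical axis of each panel. Each point is 1 library coloured by genotype and each bar is the mean over libraries with at least 20 nuclei. Tgfb1 peaked in homeostatic microglia (214 CPM), Tgfb2 in endothelial cells (191 CPM), Ltbp1 in OPCs (140 CPM) and Smad7 in MOL (634 CPM).

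Members were also followed over the authors' clusters of neurons. The mean of Smad3 ran from 12.6 CPM in cluster 8 to 173.5 ± 20.0 CPM in cluster 1 (5870 nuclei, n = 8 libraries), which was led by Otof and Nectin3, and Tgfb2 was at 69.7 ± 20.8 CPM in cluster 36 (427 nuclei, n = 4), which was led by Drd3 and Tac1. Ltbp1 was at 56.4 ± 10.8 CPM in cluster 6. Tgfb1, Tgfbr1, Tgfbr2 and Nrros were highest in cluster 13, at 5.57, 103, 30.6 and 12.1 CPM. The leading genes of cluster 13 included Plpp3, Bnc2, Slc47a1, Mertk and Apoe, several of which are glial genes, and cluster 0 was led by the myelin gene Mag and the microglial gene Inpp5d. Both clusters are annotated as neurons. Levels of the microglial members in neurons therefore rest in part on clusters that carry glial transcripts.

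The first test asked whether members differed between microglial states of the same brains. Profiles of the 3 states (16 in all) were compared in 1 edgeR quasi-likelihood model with the library as a block. Because the authors formed the states from these counts, the adjusted p-values of the state comparisons overstate the evidence. Of the 8 members that passed the filter on low counts, amyloid-DAM differed from homeostatic microglia in 3, myelin-DAM from homeostatic microglia in 1 and myelin-DAM from amyloid-DAM in 1. Over all 4189 genes tested, 17.8%, 13.3% and 3.39% were called. Tgfb2 and Ltbp1 did not pass.

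Tgfbr2, which binds the ligand first, was the member with the clearest difference. In amyloid-DAM it was at 1430 and 1328 CPM in the 5xFAD libraries and 1142 and 1333 CPM in the Cnp-/- 5xFAD libraries. In homeostatic microglia it was at 654 and 620 CPM in WT, 725 and 829 CPM in 5xFAD, 794 and 929 CPM in Cnp-/- and 804 and 844 CPM in Cnp-/- 5xFAD. All 4 amyloid-DAM profiles lay above all 8 homeostatic profiles. The share of all genes with such a separation between these states is not given here. The log2 fold change was 0.71 (SE 0.089, adjusted p = 1e-11 in edgeR), that is 1.64-fold, and it was positive in each of the 4 libraries with both states, between 0.51 and 0.98. In myelin-DAM, Tgfbr2 was at 740 and 976 CPM in Cnp-/- and 746 and 1045 CPM in Cnp-/- 5xFAD, which overlapped with homeostatic microglia (log2 fold change 0.04, SE 0.12, adjusted p = 0.896 in edgeR). Myelin-DAM was thus lower than amyloid-DAM, with a log2 fold change of -0.67 (SE 0.13, adjusted p = 1.13e-04 in edgeR). Both Cnp-/- 5xFAD libraries, which hold both states, showed this direction, at -0.61 and -0.35. From those 2 libraries alone the adjusted p was 0.0643 in edgeR.

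Tgfbr1, the receptor kinase that acts on SMAD2 and SMAD3, moved the other way in amyloid-DAM. Its levels there were 2397 and 2210 CPM in 5xFAD and 2263 and 2473 CPM in Cnp-/- 5xFAD. Homeostatic microglia of the same libraries held 2883, 2848, 2430 and 3006 CPM. The level was lower in amyloid-DAM in 4 of 4 libraries, by a log2 fold change of -0.26 (SE 0.075, adjusted p = 0.00642 in edgeR). In myelin-DAM, with 2005 and 3203 CPM in Cnp-/- and 2289 and 2710 CPM in Cnp-/- 5xFAD, the difference did not pass (-0.23, SE 0.089, adjusted p = 0.0723 in edgeR). The amyloid-DAM call for Tgfbr1 was lost in DESeq2 (adjusted p = 0.103), with nuclei of at least 1000 UMIs (0.128), with profiles of at least 5 nuclei (0.109), in the Cnp-/- 5xFAD libraries alone (0.307) and without 5xFAD replicate 2 (0.0688).

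Tgfb1 was also lower in amyloid-DAM, at 157 and 151 CPM in 5xFAD and 149 and 76.0 CPM in Cnp-/- 5xFAD. In the same libraries, homeostatic microglia held 194, 180, 261 and 216 CPM. The log2 fold change was -0.60 (SE 0.19, adjusted p = 0.0105 in edgeR) and was negative in 4 of 4 libraries, between -1.51 and -0.25. It lost its call without Cnp-/- 5xFAD replicate 1 (adjusted p = 0.0645 in edgeR) or replicate 2 (0.129), and in DESeq2 (0.139). In myelin-DAM, Tgfb1 was at 273, 170, 166 and 213 CPM and differed by -0.24 (SE 0.23, adjusted p = 0.634 in edgeR) from homeostatic microglia.

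Smad3 was the member called in myelin-DAM. Its levels were 146 and 191 CPM in Cnp-/- and 197 and 390 CPM in Cnp-/- 5xFAD, from 15, 9, 19 and 22 UMIs. Homeostatic microglia of the same libraries held 276, 260, 499 and 385 CPM. The log2 fold change was -0.65 (SE 0.21, adjusted p = 0.0182 in edgeR). Cnp-/- 5xFAD replicate 2 showed no difference (0.02), so that 3 of 4 libraries were lower. Without Cnp-/- replicate 1 it was -0.58 (adjusted p = 0.101 in edgeR), without Cnp-/- 5xFAD replicate 1 it was -0.36 (0.5259) and without Cnp-/- 5xFAD replicate 2 it was -0.98 (0.00104). The adjusted p was 0.217 in DESeq2, 0.0918 with profiles of at least 5 nuclei and 0.0613 in the Cnp-/- 5xFAD libraries alone. In amyloid-DAM, Smad3 was at 345 to 407 CPM, with a log2 fold change of -0.03 (SE 0.13, adjusted p = 0.936 in edgeR) against homeostatic microglia.

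The other 4 members gave no call between states in edgeR. Ski was higher in amyloid-DAM than in homeostatic microglia in 4 of 4 libraries, by 0.12 to 0.39 on the log2 scale, but did not pass (0.19, SE 0.11, adjusted p = 0.283 in edgeR). In myelin-DAM it was at 409 and 276 CPM in Cnp-/- and 373 and 602 CPM in Cnp-/- 5xFAD, so that 3 of 4 libraries lay below their homeostatic microglia (-0.29, SE 0.16, adjusted p = 0.286 in edgeR). Myelin-DAM differed from amyloid-DAM in Ski by -0.48 (SE 0.17, adjusted p = 0.133 in edgeR). Without Cnp-/- 5xFAD replicate 2, edgeR called Ski in both comparisons, at -0.54 (adjusted p = 0.0380) and -0.68 (0.0408). Smad7 differed by -0.21 in amyloid-DAM (adjusted p = 0.315 in edgeR) and by 0.07 in myelin-DAM (0.882). Nrros differed by 0.05 and -0.26, and Smad2 by 0.08 and -0.34. The median log2 fold change of the 8 tested members was 0.01 in amyloid-DAM and -0.25 in myelin-DAM against homeostatic microglia, beside 0.03 and 0.00 over all genes tested.

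Sums of markers of other cell types were taken in the states too. The sum of 4 endothelial markers was 58.0 to 149 CPM in homeostatic microglia, 179 to 278 CPM in amyloid-DAM and 337 to 549 CPM in myelin-DAM. Flt1 carried most of this sum in the DAM states, with a mean of 194 CPM for amyloid-DAM profiles and 428 CPM for those of myelin-DAM. In 3 of the 4 myelin-DAM libraries it was the 1 endothelial marker with a UMI, and the defining marker Cldn5 had means of 0, 4.36 and 2.43 CPM in homeostatic, amyloid-DAM and myelin-DAM profiles. Sums of 5 macrophage markers were 0 to 32.4, 8.30 to 124 and 0 to 58.4 CPM, with at least 1 library in which no macrophage marker had a UMI in homeostatic microglia and in myelin-DAM. Sums of 5 astrocyte markers were 319 to 854, 190 to 663 and 263 to 435 CPM. Slc1a3 gave the largest part of these, with means of 377, 249 and 371 CPM, and Aqp4 had no UMI in homeostatic microglia and myelin-DAM. Sums of the 4 NFOL markers were 823 to 1197, 573 to 685 and 601 to 870 CPM, without overlap between homeostatic microglia and amyloid-DAM. Nearly all of these came from Itpr2 and Tcf7l2, while Bcas1 and Enpp6 had means of 0 to 7.96 CPM. The part of these markers in the differences of Tgfbr2, Tgfbr1, Tgfb1 and Smad3 was not tested. Tgfbr2 was at 238 CPM in endothelial cells and 590 CPM in macrophages, both below its mean in each of the 3 states compared.

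**Figure D2:**
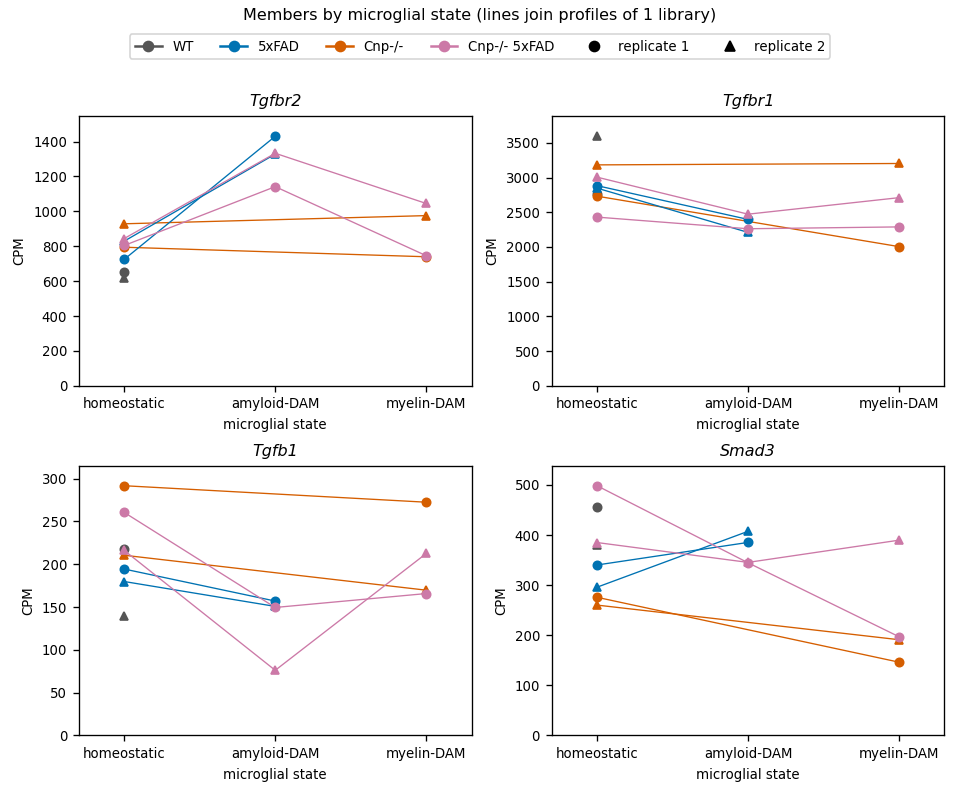
CPM (vertical axes) of Tgfbr2, Tgfbr1, Tgfb1 and Smad3 in homeostatic microglia, amyloid-DAM and myelin-DAM. Each symbol is the profile of 1 library, circles are replicate 1 and triangles replicate 2, colours give the genotype and lines join profiles of 1 library. Tgfbr2 was at 1142 to 1430 CPM in amyloid-DAM, 620 to 929 CPM in homeostatic and 740 to 1045 CPM in myelin-DAM profiles.

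Other genes of the pathway were taken from lists of ligands and latency genes, receptors, SMADs and regulators, and response genes. In amyloid-DAM against homeostatic microglia, where 17.8% of all genes tested were called, 2 of 17 ligand and latency genes could be tested and both fell. They were the integrin subunits Itgav (log2 fold change -0.35, adjusted p = 0.0438) and Itgb5 (-0.40, adjusted p = 1.57e-04), whose integrin complexes can release active TGF-β. Of 5 receptors tested out of 10, the BMP receptor Bmpr2 rose (0.38) and the co-receptor Eng fell (-1.33). Among 10 tested SMADs and regulators of 16, Pmepa1, a feedback inhibitor and target of the pathway, fell (-0.48), as did the ubiquitin ligase Smurf2 (-0.37), a share near that of all genes. In myelin-DAM, Eng (-1.14) and Pmepa1 (-1.57, SE 0.20, adjusted p = 2.15e-11) fell against homeostatic microglia and no other of the 17 genes tested from these 3 lists was called, beside 13.3% of all genes. Pmepa1 was also lower in myelin-DAM than in amyloid-DAM (-1.09, SE 0.22, adjusted p = 2.93e-04). Of 12 response genes in general, such as Id1, 2 could be tested, and Pmepa1, which is also on this list, was the 1 called in each comparison of states. All these adjusted p-values are from edgeR.

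Genes known to depend on TGF-β in microglia were mostly lower in both DAM states. Of 13 tested out of 15, 9 fell in amyloid-DAM and 10 in myelin-DAM, and none rose, beside 17.8% and 13.3% of all genes called. Tmem119, a microglial surface marker, had log2 fold changes of -1.93 and -1.93 in amyloid-DAM and myelin-DAM. Siglech, a microglial lectin, fell by 1.14 and 1.76, and the ADP receptor P2ry12 by 0.84 and 1.29. Sall1, a transcription factor of microglial identity, fell by 0.89 and 1.13, and the fructose transporter Slc2a5 by 1.49 and 2.71. Medians over the list were -0.54 in amyloid-DAM and -0.69 in myelin-DAM, beside 0.03 and 0.00 over all genes tested. Loss of such homeostatic markers is how DAM are recognised, so these counts describe the states and are not independent evidence about TGF-β. Between the DAM states, Siglech was lower in myelin-DAM (-0.62, adjusted p = 0.0349 in edgeR), the 1 gene of this list that was called.

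The second set of tests asked whether Cnp loss, the 5xFAD transgenes or their interaction changed the members within a cell type. Sums over each library were fitted in 8 cell types, with 4 libraries against 4 in each main effect. Homeostatic microglia were fitted alone and also as part of all microglia, so the tests of these classes share nuclei and are not separate. Of 66 member tests for Cnp loss, 1 passed, and none passed of 66 for 5xFAD and of 66 for the interaction. Over all genes, edgeR called 0% to 1.6% for Cnp loss, 0% to 0.391% for 5xFAD and 0% to 0.0489% for the interaction, depending on the cell type. At an unadjusted p under 0.05 there were 11, 7 and 5 member tests, beside 8.52%, 7.22% and 4.97% of the 83171 tests of all genes in these cell types. DESeq2 called 3, 2 and 0 members, and its share over all genes is not given here. Of the 3, 1 was Smad3 in MOL, which passed the filter only through the libraries without Cnp. NFOL were added to the fitted cell types after the levels of Smad7 there had been seen.

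The call was Smad7 in NFOL, which was higher in mice without Cnp. Its levels were 92.5 and 72.2 CPM in WT and 142 and 95.3 CPM in 5xFAD, but 294 and 263 CPM in Cnp-/- and 249 and 214 CPM in Cnp-/- 5xFAD. These came from 24, 11, 79, 40, 87, 61, 98 and 72 UMIs in the same order. All 4 libraries without Cnp lay above all 4 with it. The log2 fold change was 1.35 (SE 0.19, adjusted p = 0.00307 in edgeR), a 2.56-fold difference, beside 1.6% of 7248 genes called and 7.22% of them without overlap. Leaving out each library in turn gave 1.23 to 1.52, with adjusted p from 0.00124 to 0.0186. Because the class was chosen for this gene after its levels were seen, the p-value is not that of an independent test.

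NFOL profiles held 22 to 104 nuclei, and markers of neighbouring types moved with Cnp loss. The sum of 5 myelin markers of mature oligodendrocytes was 1372 to 3437 CPM in NFOL of the 4 libraries with Cnp and 4125 to 5185 CPM in the 4 without, so the groups did not overlap. Mbp had the highest mean of the 5 in NFOL (1618 CPM). Sums of 5 astrocyte markers were 5943 to 9902 CPM with Cnp and 4223 to 4710 CPM without, again without overlap. The sum of the 4 NFOL markers was 1645 to 3440 and 2619 to 3909 CPM. Smad7 was at 634 CPM in MOL and 49.5 CPM in astrocytes, and without Cnp the myelin marker sum was higher, like Smad7, and the astrocyte marker sum lower. Their part in the result was not tested. Tgfbr2 in NFOL was at 30.8 and 0 CPM in WT, 63.0 and 42.9 CPM in 5xFAD, 112 and 60.3 CPM in Cnp-/- and 53.4 and 59.4 CPM in Cnp-/- 5xFAD, which did not pass (1.14, SE 0.38, adjusted p = 0.163 in edgeR). Leaving out each library in turn moved this estimate between 0.81 and 4.01, with 4.01 without WT replicate 1, where the remaining WT library had 0 UMIs of Tgfbr2. The 6 microglial markers summed to 72.2 to 605 CPM in NFOL. In homeostatic microglia their mean sum was 8343 CPM, beside 2930 CPM of Tgfbr1 and 775 CPM of Tgfbr2. The part of microglial transcripts in the NFOL levels of both receptors was not tested. Among other pathway genes, the BMP receptor Bmpr1b fell in NFOL without Cnp (-1.19, SE 0.20, adjusted p = 0.0112 in edgeR).

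In MOL, Smad7 showed the same direction and just missed the threshold. It was at 484 and 515 CPM in WT, 517 and 480 CPM in 5xFAD, 734 and 845 CPM in Cnp-/- and 677 and 816 CPM in Cnp-/- 5xFAD. The groups did not overlap, as in 9.9% of all genes tested, with 499 ± 19.5 CPM in the 4 libraries with Cnp and 768 ± 76.7 CPM in the 4 without. The log2 fold change was 0.70 (SE 0.12, adjusted p = 0.0518 in edgeR), and 0.765% of 8761 genes were called. DESeq2 called it, and so did edgeR without a filter, with nuclei of at least 1000 UMIs and without Cnp-/- replicate 1 (adjusted p = 0.0345). Without any one of the other 7 libraries it was not called, with adjusted p up to 0.202 in edgeR (without Cnp-/- 5xFAD replicate 2), and with the replicate number as a block the adjusted p was 0.0902. In OPCs, Smad7 lay between 31.4 and 58.2 CPM in all libraries (log2 fold change for Cnp loss 0.31, SE 0.23). Whether the effects in NFOL, MOL and OPCs differ from each other was not tested.

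Smad3 in MOL had the largest fold change of any member with Cnp loss, from very low levels. It was at 10.4 and 1.06 CPM in WT, 1.66 and 1.12 CPM in 5xFAD, 80.4 and 26.8 CPM in Cnp-/- and 64.5 and 20.5 CPM in Cnp-/- 5xFAD. The UMIs were 12, 1, 3, 1, 132, 22, 78 and 20 in the same order. Both libraries of replicate 1 without Cnp were higher than both of replicate 2. The fitted log2 fold change of 4.04 (SE 0.77, adjusted p = 0.0709 in edgeR) missed the threshold. Leaving out each library in turn gave 3.53 to 5.22, the highest without WT replicate 1, with adjusted p from 0.0714 to 0.252 in edgeR. DESeq2 called it, and so did edgeR without a filter and with the replicate number as a block (adjusted p = 0.0437). Smad3 passed the filter only through the libraries without Cnp, so its groups had to differ in every filtered fit, DESeq2 and the block included. The p-values and calls of those fits are therefore not independent evidence. The 6 microglial markers summed to 3.17 to 35.5 CPM in MOL. In homeostatic microglia they summed to a mean of 8343 CPM beside 361 CPM of Smad3. The part of microglial transcripts in the Smad3 level of MOL was not tested. Smad1, the transducer of BMP signals, fell in MOL without Cnp (-2.03, SE 0.33, adjusted p = 0.0447 in edgeR).

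**Figure D3:**
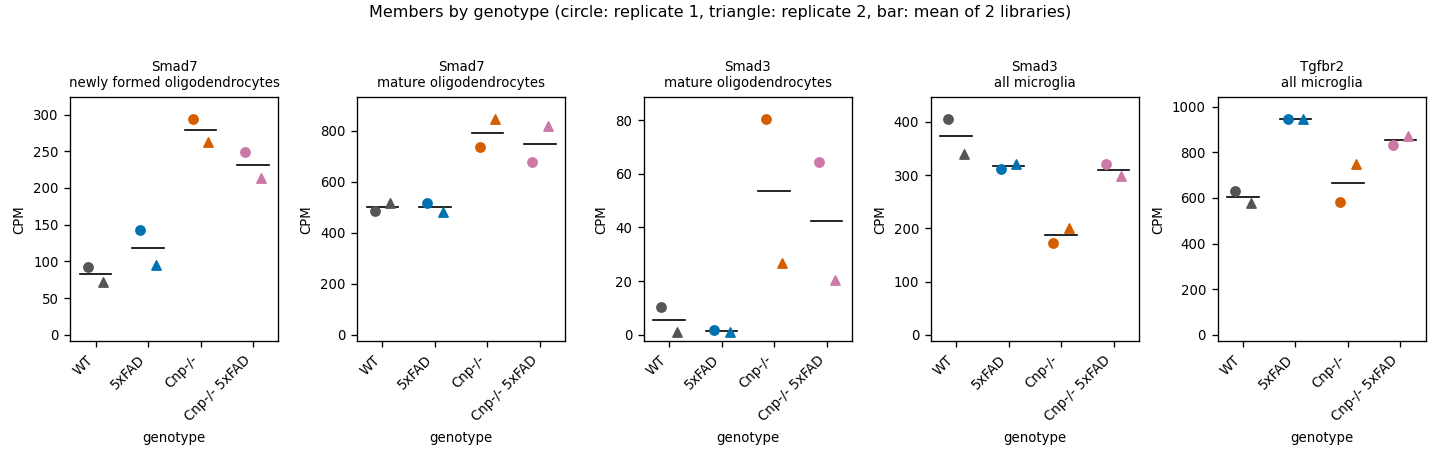
CPM (vertical axes) of 5 member and cell type pairs by genotype: Smad7 in NFOL, Smad7 in MOL, Smad3 in MOL, Smad3 in all microglia and Tgfbr2 in all microglia. Points are libraries and bars are means of 2 libraries. Smad7 in NFOL was at 72.2 to 142 CPM with Cnp and 214 to 294 CPM without, and Tgfbr2 in all microglia was at 578 to 748 CPM without and 834 to 946 CPM with the 5xFAD transgenes.

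In all microglia together, without macrophages, no member passed for Cnp loss, for 5xFAD or for the interaction, while 1.59%, 0.391% and 0.0489% of 8185 genes did. Of the 8 members tested, 1 was under 0.05 before adjustment in each of the 3 contrasts, and DESeq2 called 0, 1 (Tgfbr2) and 0. The shares over all genes above are those of edgeR, and none is given here for DESeq2. Tgfbr2 had the lowest adjusted p for 5xFAD. Its levels were 631 and 578 CPM in WT, 582 and 748 CPM in Cnp-/-, 945 and 946 CPM in 5xFAD, and 834 and 871 CPM in Cnp-/- 5xFAD. The groups did not overlap, as in 5.02% of all genes tested, and the log2 fold change was 0.50 (SE 0.11, adjusted p = 0.104 in edgeR). Within homeostatic microglia alone the log2 fold change was 0.11 (SE 0.12, adjusted p = 0.993 in edgeR). Amyloid-DAM made up 31.9% to 42.3% of microglia with the 5xFAD transgenes and 0% to 5.34% without them.

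Smad3 had the lowest adjusted p for Cnp loss in microglia. It was at 406 and 340 CPM in WT, 312 and 322 CPM in 5xFAD, 172 and 202 CPM in Cnp-/- and 322 and 299 CPM in Cnp-/- 5xFAD. Only the Cnp-/- libraries were lower than all others, and the 4 libraries without Cnp overlapped with the 4 with it. The log2 fold change was -0.51 (SE 0.14, adjusted p = 0.125 in edgeR), and the interaction was 0.98 (SE 0.28, adjusted p = 0.308 in edgeR). Homeostatic microglia alone held 456 and 380 CPM in WT, 340 and 296 CPM in 5xFAD, 276 and 260 CPM in Cnp-/- and 499 and 385 CPM in Cnp-/- 5xFAD. There too the Cnp-/- libraries were the lowest. Cnp loss gave -0.09 (SE 0.17, adjusted p = 0.986 in edgeR), an average over Cnp-/- libraries below WT and Cnp-/- 5xFAD libraries above 5xFAD. The interaction was 1.16 (SE 0.34, unadjusted p = 0.00608, adjusted p = 0.798 in edgeR). Nrros was the 1 of 8 members without overlap, as were 6.12% of all genes tested, at 264 to 299 CPM without Cnp and 306 to 337 CPM with it (-0.14, SE 0.13, adjusted p = 0.737 in edgeR). Myelin-DAM made up 28.8% and 31.7% of microglia in Cnp-/- and 13.96% and 17.6% in Cnp-/- 5xFAD.

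Within homeostatic microglia, 0.11%, 0.0657% and 0% of 4566 genes were called for Cnp loss, 5xFAD and the interaction, and no member was. At an unadjusted p under 0.05 there were 0, 0 and 1 members, and DESeq2 called 0 in each. Member estimates lay between -0.09 and 0.40 for Cnp loss and between -0.13 and 0.38 for 5xFAD. Across microglia, Siglech was the 1 TGF-β dependent gene called for Cnp loss (-0.72, SE 0.14, adjusted p = 0.0408 in edgeR), with a list median of -0.47 beside 0.02 over all genes. In homeostatic microglia the same list had a median of -0.12 and no call in edgeR. Beside Siglech here, Bmpr1b in NFOL and Smad1 in MOL, no gene of the 5 lists was called in any genotype contrast by edgeR.

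In OPCs, astrocytes, endothelial cells and neurons no member was called in any of the 3 contrasts by edgeR. Few genes of any kind were: Cnp loss gave 0.0425% in endothelial cells, 0.0185% in neurons and 0% in OPCs and astrocytes, and 5xFAD and the interaction gave 0% in all 4. In MOL and NFOL, 5xFAD and the interaction gave 0% as well. In these contrasts without a call over all genes, edgeR gave 299 to 2542 genes at an unadjusted p under 0.05 and DESeq2 called 0 to 506. For Cnp loss, 5xFAD and the interaction in turn, members under 0.05 before adjustment numbered 1, 3 and 1 in OPCs, 4, 0 and 1 in astrocytes, 0, 0 and 0 in endothelial cells and 1, 2 and 0 in neurons. DESeq2 called 1 member among them, Smad7 with 5xFAD in neurons. The members nearest to a call were described with their values. With Cnp loss in astrocytes, 3 of 9 members tested (Ltbp1, Smad3 and Smad7) did not overlap between groups, beside 3.02% of all genes tested, and with 5xFAD in OPCs 2 of 7 (Smad2 and Smad3) did not, beside 3.05%. Ltbp1 in astrocytes was at 107, 86.3, 108 and 99.2 CPM in WT and 5xFAD and at 131, 129, 152 and 142 CPM in Cnp-/- and Cnp-/- 5xFAD, without overlap (0.46, SE 0.10, adjusted p = 0.763 in edgeR). Smad3 in astrocytes was at 58.1 to 91.0 CPM with Cnp and 22.3 to 56.7 CPM without (-0.99, SE 0.33, adjusted p = 0.867 in edgeR). Smad3 in OPCs was at 37.9 to 55.8 CPM without and 66.3 to 79.2 CPM with the 5xFAD transgenes (0.65, SE 0.17, adjusted p = 0.81 in edgeR).

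In neurons, each profile held 4463 to 6838 nuclei. Member estimates lay between -0.52 and 0.22 for Cnp loss and between -0.42 and 0.17 for 5xFAD. The mix of neurons differed between libraries: cluster 7 (2392 nuclei) reached 20 nuclei in 3 libraries and cluster 9 (2011 nuclei) in 5. Its part in these differences was not tested. Groups did not overlap in 2 of 10 members for 5xFAD (Smad7 and Nrros), beside 5.18% of all genes tested, and in 1 of 10 for Cnp loss (Tgfb2), beside 4.78%. Smad7 was at 47.0 to 57.0 CPM in the 4 libraries without and 35.3 to 44.2 CPM in the 4 with the 5xFAD transgenes (-0.34, SE 0.081, adjusted p = 0.280 in edgeR). Tgfbr1 was at 19.5 to 27.8 and 16.5 to 21.1 CPM (-0.42, SE 0.12, adjusted p = 0.296 in edgeR). Tgfb2 was at 8.07 to 9.86 CPM with Cnp and 4.36 to 7.86 CPM without (-0.52, SE 0.14, adjusted p = 0.487 in edgeR). In endothelial cells, where Tgfb2 had its highest CPM, its levels lay between 175 and 226 CPM. They changed by 0.09 with Cnp loss (SE 0.11) and by 0.03 with 5xFAD (SE 0.11). Members that failed the filter in a cell type were examined by exact permutation tests of CPM, two-sided, with 4 libraries against 4. In these 28 tests of 70 relabellings each, the lowest p was 0.0571, the lowest adjusted p was 0.96 and the smallest p the design allows is 0.0286. A lone test at that smallest p would not pass after adjustment over the 28 tests. The lack of a call here is therefore not evidence that these members were unchanged.

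**Figure D4:**
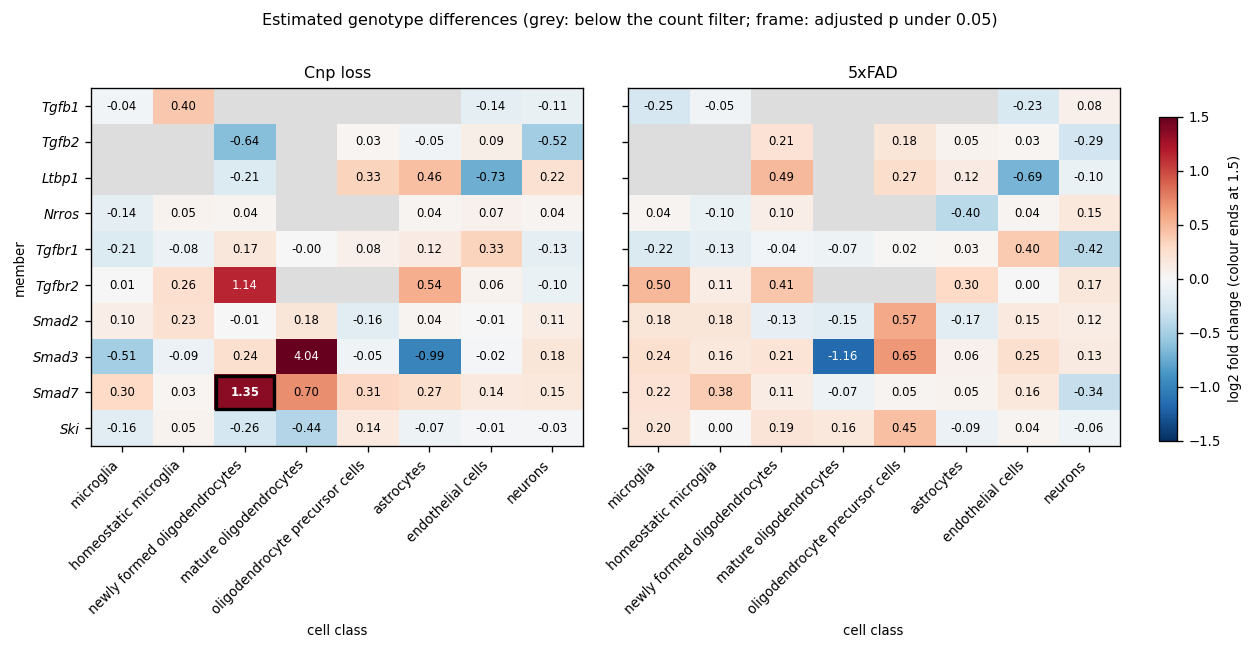
Log2 fold changes of the 10 members for Cnp loss and for 5xFAD in 8 cell types, as colour (red higher, blue lower) with the value in each field. Grey fields did not pass the filter on low counts, and a frame marks an adjusted p under 0.05 in edgeR, which was reached by Smad7 in NFOL with Cnp loss (1.35).

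The genes whose pattern over cell types was most like each member were named by Pearson's r of log2(CPM + 1) over 82 profiles of library and cell type, among 19127 genes. Profiles of 1 cell type share its identity and those of 1 library its depth, so r is given as a description. The closest genes were Gm26510 (0.924) and Fli1 (0.918) for Tgfb1, and Tsc22d1 and Plscr4 (both 0.862) for Tgfb2. For the latency partners they were Sox6 (0.866) and Gm4876 (0.854) for Ltbp1, and Prkcd (0.939) and Il6ra (0.924) for Nrros. Tgfbr1 was closest to Gm2629 (0.925) and Gm40645 (0.924), and Tgfbr2 to AU020206 (0.939) and Lrrk1 (0.936). Smad2 was closest to Snx13 (0.862) and Clint1 (0.851), and Smad3 to P2ry12 (0.811) and Elk3 (0.806). Smad7 had the lowest likeness to any gene, at 0.759 with Slc4a2 and 0.744 with Myo1e, and Lyn (0.914) was among the genes closest to Ski. With log2(CPM + 10), neither gene named here for Tgfbr1, Smad3 and Smad7 was among the 2 closest.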

How the data were processed

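The deposited values are UMI counts for each gene and nucleus, without normalization, in 1 table of all nuclei and 1 of microglia and macrophages, and the authors' cell type of each nucleus comes with them. Per the study's methods and the submitters' processing notes, the authors aligned 10x Chromium 3′ reads to mm10 with Cell Ranger 6.1.2, removed ambient transcripts with CellBender, filtered nuclei on genes and UMIs, and clustered them with Seurat. Intron counting and the treatment of doublets are not given in the sources used here. UMI totals of each nucleus equalled the deposited totals, and 0 columns of samples were left unused. No label says how far the libraries are independent, so p-values measure the spread between these libraries.

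Counts were summed over the nuclei of a cell type in each library, and groups follow the genotype labels. Genes were filtered by filterByExpr, scaled by TMM and tested two-sided by the quasi-likelihood test of edgeR 4.0.16 (R 4.3.3), with Benjamini-Hochberg adjustment over all genes tested and a threshold of 0.05. Genotype models had 1 mean per genotype. State models had the library as a block and took profiles of at least 20 nuclei. Pericytes were not fitted, with 19 nuclei in 1 library. Each model was tested on simulated data with 200 changed genes. Exact permutation tests were run with scipy 1.17.1. The alternatives were DESeq2 1.42.0 as the test, its size factors in edgeR, no filter, the replicate number as a block, nuclei with at least 1000 UMIs, profiles of at least 5 nuclei, profiles fitted as independent, the Cnp-/- 5xFAD libraries alone, microglia without MyTE nuclei or with macrophages, log2(CPM + 10) for the likeness, and each library left out in turn. The NFOL models were chosen after seeing the data. The members and lists were chosen with earlier results of these data known. Every member is named. From the lists, genes called in a comparison are named, at most 8 for each list and comparison by size, and for each member the 2 genes with the highest correlation, among genes with at least 200 UMIs, except that 1 of those closest to Ski is not reported here. Promoter windows come from a RefSeq table of GRCm38.p6.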

Additional observations from a re-analysis of the deposited data

Results flagged for a closer look

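In 120 groups of 4 to 8 libraries (10 genes in 12 cell types and states), 12 held a library that lay far from the others by Dixon's test, whose chance rate is about 5%. In amyloid-DAM, Tgfb1 of Cnp-/- 5xFAD replicate 2 was at 76.0 CPM, with the other 3 libraries at 149 to 157 CPM. Without that library the Tgfb1 difference between amyloid-DAM and homeostatic microglia lost its call (adjusted p = 0.129 in edgeR). Tgfbr1 in macrophages was at 792 CPM in 5xFAD replicate 1, with the other 4 libraries at 426 to 503 CPM. Ski in homeostatic microglia was at 342 CPM in WT replicate 2, with the others at 453 to 543 CPM, and in MyTE microglia at 130 CPM in Cnp-/- replicate 2, with the others at 224 to 272 CPM. In pericytes, Tgfb1 of Cnp-/- replicate 1 was at 107 CPM from 3 UMIs, with the others at 0 to 45.9 CPM.

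The other 7 rested on 1 UMI in the library named and 0 in the rest of its group. They were Tgfb2 at 5.58 CPM in amyloid-DAM of 5xFAD replicate 2, at 21.2 CPM in myelin-DAM of Cnp-/- replicate 2, at 6.98 CPM in MyTE microglia of Cnp-/- 5xFAD replicate 2 and at 7.47 CPM in macrophages of 5xFAD replicate 1. The rest were Nrros at 9.63 CPM in pericytes of 5xFAD replicate 1, and Ltbp1 at 12.4 CPM in homeostatic microglia of Cnp-/- replicate 2 and at 6.91 CPM in amyloid-DAM of Cnp-/- 5xFAD replicate 2.

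Members were also counted in 181 nuclei that the authors annotated as microglia but gave no subpopulation, 9 to 31 for each library, which entered no comparison. They held 541 UMIs of Tgfbr1, 249 of Tgfbr2, 215 of Smad7, 157 of Ski, 106 of Nrros, 92 of Smad3, 75 of Smad2, 47 of Tgfb1, 37 of Tgfb2 and 28 of Ltbp1, each above the 3 counts that a count of 0 allows. Pooled over libraries, Tgfbr1 was at 618 CPM, Tgfb2 at 42.3 CPM and Ltbp1 at 31.98 CPM in these nuclei. The means over libraries in the microglia with a subpopulation were 2383, 4.74 and 2.85 CPM. The 181 nuclei were deeper, with 875674 UMIs of all genes, beside 694890 UMIs in the 435 microglia with a subpopulation of 5xFAD replicate 1. The part of this depth in the levels was not tested.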

How the results depend on the processing

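Of 27 comparisons, the number of members called stayed the same in 19 under every alternative run, and all 19 had 0 members called in the main fit. Each comparison with a call in the main fit changed its count under at least 1 alternative. Of the recomputed counts, 341 stayed within 1.5 times the main count while 22 did not, and the 341 include counts of 0 that stayed at 0. No estimate that was called, in 2982 compared, changed its sign. Without the filter on low counts, edgeR called 1 member with 5xFAD in microglia (Tgfbr2), 2 with Cnp loss in MOL (Smad3, Smad7), 1 with Cnp loss in astrocytes (Smad3), 2 with Cnp loss in NFOL (Smad7, Tgfbr2) and 2 in myelin-DAM against homeostatic microglia (Smad3, Tgfbr1). DESeq2 called 1 with 5xFAD in microglia (Tgfbr2), 2 with Cnp loss in MOL, 1 with 5xFAD in neurons (Smad7), 1 in amyloid-DAM against homeostatic microglia (Tgfbr2) and 0 in myelin-DAM against homeostatic microglia, where 1 had an unadjusted p under 0.05. Nuclei of at least 1000 UMIs gave 1 in MOL (Smad7) and 2 in myelin-DAM against amyloid-DAM (Smad3, Tgfbr2). Profiles of at least 5 nuclei gave 0 in myelin-DAM against homeostatic microglia, and the Cnp-/- 5xFAD libraries alone, which leave 2 libraries, gave 0 there and 0 in myelin-DAM against amyloid-DAM. For the other changes the cause was not tested. The shares of all genes called under the alternatives of this and the next paragraph are not given here.

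Leaving out each library in turn gave 0 to 1 members with Cnp loss in MOL (1 without Cnp-/- replicate 1), 2 to 3 in amyloid-DAM and 0 to 3 in myelin-DAM against homeostatic microglia, and 1 to 3 in myelin-DAM against amyloid-DAM. In the last 2, the highest count came without Cnp-/- 5xFAD replicate 2. Where 1 library of a genotype remained, it was assumed to vary like the others. With the replicate number as a replicate block, 1 member was called with Cnp loss in MOL (Smad3, adjusted p = 0.0437 in edgeR), and no other count changed. Smad3 passed the filter there only through the libraries without Cnp, so this call is not independent evidence. Same-numbered libraries did not deviate together in all pairs of any cell type (r from -0.26 to 0.29), so the number was not taken as a pairing. Whether some of the libraries share a batch was not tested. Excitatory neurons alone were not run, since the annotation does not separate them. With log2(CPM + 10), 11 of the 20 most alike genes were named again, with 0 of 2 for Tgfbr1, Smad3 and Smad7. Depth limits the rare members: Tgfb2 and Ltbp1 in microglia and Smad3 in MOL with Cnp rest on 0 to 12 UMIs in most libraries.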
